A study of Mus musculus with 6 samples.

Results

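The integrated stress response was examined in mouse hearts through 9 genes: the transcription factors Atf4, Atf5, Ddit3 and Atf3, the target genes Trib3, Asns and Chac1, and the hormones Gdf15 and Fgf21. They were found on the arrays as the probes whose RefSeq accession belongs to one of these symbols, which gave 10 probes for the 9 genes, 1 for each gene except Atf4 with 2, out of 55608 probes kept and 20128 named genes on the arrays. Total RNA from whole hearts of C57/B6 mice aged 8 weeks was labelled with Cy3 and read on 1-colour Agilent arrays, 1 array per heart. All 6 mice carried floxed alleles of PHD2 and PHD3 (PHD2/3f/f), the prolyl hydroxylases that mark hypoxia-inducible factors for destruction when oxygen is present. The 3 control hearts were Cre-/- and the 3 hearts called KO-labelled here were Cre+/-, described as biological replicates. The labels used here do not name the promoter that drives Cre, and no Cre-carrying group without floxed alleles was among the samples, so Cre and the deletion cannot be told apart.

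Cells under stress switch on one of several kinases that phosphorylate the translation factor eIF2. Most protein synthesis then slows, while the mRNA of the transcription factor ATF4 is translated more. ATF4 and its partners turn on genes for amino acid supply, redox balance and, when stress lasts, cell death, and stressed tissues can release the hormones FGF21 and GDF15. In heart muscle the response is best known from mitochondrial defects, which reach the kinase HRI through the protease OMA1 and the messenger protein DELE1. Because ATF4 is regulated largely at translation, its transcript level is not a measure of its protein.

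ATF4 binds as a dimer with C/EBP proteins to the C/EBP-ATF response element, searched here as TGATGNAA on both strands. The RefSeq promoter windows of build GRCm38.p6 run from 250 bases before a gene's annotated start to 50 after it. The element occurred in 5 of the 9 genes, in 5 of their 11 windows, and in 3.97% of all 32851 windows. The 30 bases around each match are shown because most of these genes share the element. Target genes of ATF4 were part of the choice of genes, so this share was partly set by the choice and is only a description. Capitals mark the element, which reads on the gene's own strand in Asns and on the opposite strand in the other genes.
Asns: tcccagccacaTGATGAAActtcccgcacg
Atf3: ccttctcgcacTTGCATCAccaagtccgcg
Chac1: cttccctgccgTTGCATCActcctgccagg
Fgf21: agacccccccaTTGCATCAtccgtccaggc
Trib3: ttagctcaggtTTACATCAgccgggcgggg
The Asns stretch lies at chr6:7693214-7693243 on the minus strand, with the element 23 bases before the start. The Atf3 stretch lies at chr1:191183425-191183454 on the minus strand, 110 bases before the start by its element. The Chac1 stretch is chr2:119351038-119351067 on the plus strand, 193 bases before the start. The Fgf21 stretch is chr7:45615611-45615640 on the minus strand, 139 bases before the start. The Trib3 stretch is chr2:152344028-152344057 on the minus strand and begins after the start, with the element from base 15. No such letters were in the windows of Gdf15, Atf4, Atf5 or Ddit3, which says nothing of sites elsewhere.

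The hypoxia-inducible factors bind the core letters ACGTG or GCGTG, searched on both strands. ACGTG was in the windows of Asns, Ddit3, Fgf21 and Gdf15 and in 19.6% of all windows, and GCGTG was in those of 7 of the 9 genes and in 32.4% of all windows. The ACGTG matches of Gdf15 and Fgf21 lie inside the E-box CACGTG, which was in 7.15% of windows and contains ACGTG on both strands. The E-box is shown in capitals for the hormone genes, whose windows are the only ones of the 9 genes to hold it.
Gdf15: cacagggcagggCACGTGtgagcatccagt
Fgf21: gagtggggagggCACGTGggcgggcctgtc
The Gdf15 stretch is chr8:70632161-70632190 on the minus strand, 83 bases before one of the gene's annotated starts, and the Fgf21 stretch is chr7:45615523-45615552 on the minus strand. These matches are descriptions of letters; no binding was measured.

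As a check of the labels, Egln1, which encodes PHD2, was lower in the KO-labelled hearts by 1.23 ± 0.21 (SE) on the log2 scale, and Egln3, which encodes PHD3, was higher by 1.98 ± 0.17, with adjusted p = 0.00652 and 0.00165. Egln3 thus ran against its label, on both of its probes. Where the Egln3 probes lie relative to the deleted part was not known, so they do not check the deletion of PHD3. All directions below are of the hearts as labelled. Between 46.3% and 51% of probes were well above background on each array, and no probe was saturated (0 on each array). With 3 arrays in each group, precision is limited by their number throughout. Values are log2 signals relative to the 75th percentile of the same array, and a difference is KO-labelled minus control, tested with limma and adjusted by the Benjamini-Hochberg method over all 20014 genes and unnamed features. Control and KO-labelled arrays lay in different columns of 1 slide, so position and group cannot be told apart.

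Asns and Gdf15 rose in the KO-labelled hearts, and the other 6 genes that could be tested did not pass. The 2 risers make up 25% of the 8 genes tested, and 0 fell by limma, also at an unadjusted p under 0.05 (0 of 8). Over all features, 39.1% passed in either direction, 16.1% higher and 23% lower, and in 55.9% the groups did not overlap, against 2 of the 8 genes here. The median difference of the 8 genes was 0.11, and that of all features was -0.11. With so large a background, 2 of 8 is not a result about the set.

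**Figure D1:**
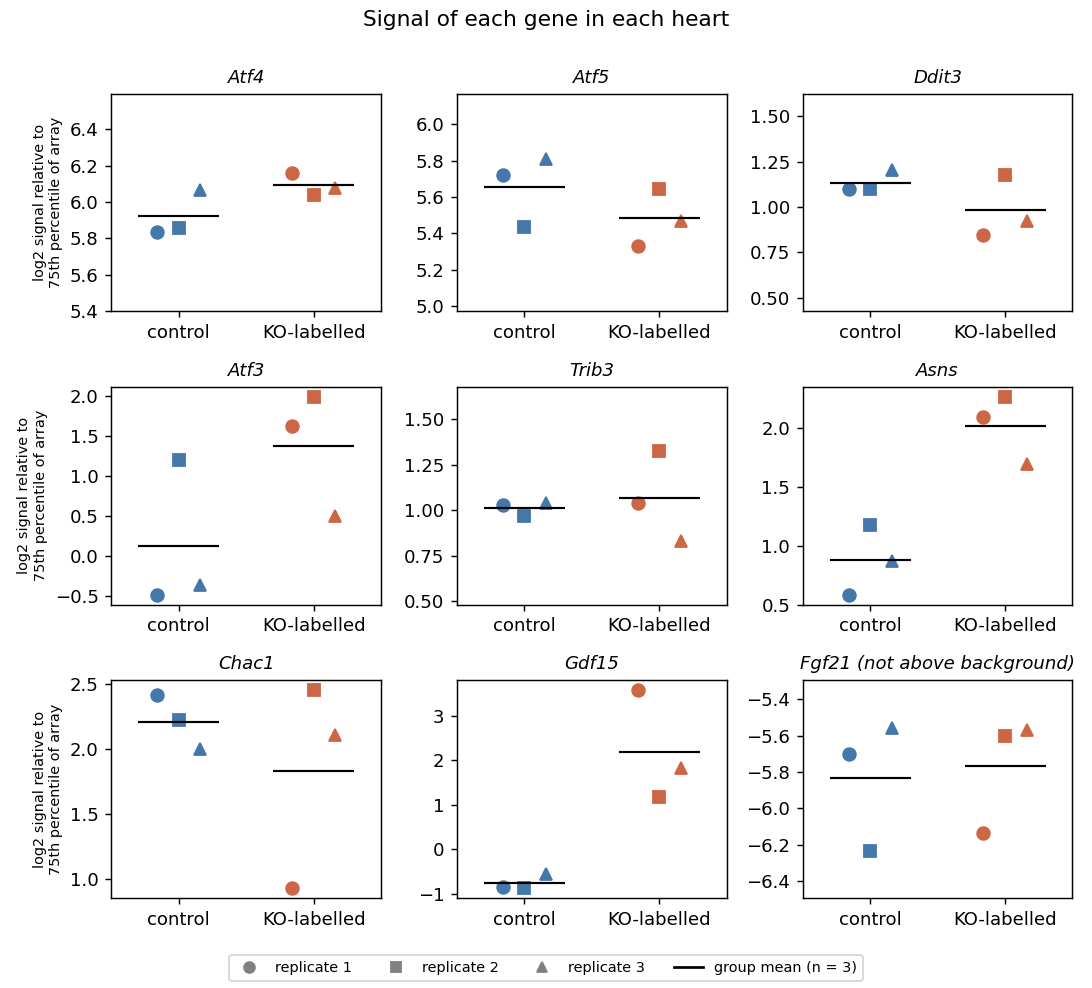
Log2 signal, set against the 75th percentile of the array, in each of the 6 hearts, 1 panel per gene with its own vertical scale, where points are hearts, shapes are replicate numbers and black lines are group means (n = 3). The groups are apart for Asns and Gdf15, overlap for the other 6 tested genes, and Fgf21 lies below the level called well above background on all 6 arrays.

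Among the transcription factors, Atf4 encodes the central activator of the response. Its probe with the higher mean signal (NM_009716) read 5.84, 5.86 and 6.07 in control hearts 1 to 3 and 6.16, 6.04 and 6.08 in KO-labelled hearts 1 to 3. The groups overlapped, with control heart 3 above KO-labelled heart 2. The difference was 0.17 ± 0.12 (SE, n = 3 per group), with a 95% interval from -0.12 to 0.46 and adjusted p = 0.288 by limma. The other Atf4 probe read 0.23, 0.56 and 0.37 in control hearts and 0.61, 0.05 and 0.39 in KO-labelled hearts, a difference of -0.04 with adjusted p = 0.883 when limma was run on every probe. Here too the groups overlapped, with KO-labelled heart 2 the lowest of all 6. On the brighter probe Atf4 passed as higher under quantile normalization, at 0.37 with adjusted p = 0.0376, and under cyclic loess, at 0.36 with adjusted p = 0.0453 by limma, so its call turned on the scaling.

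Atf5 encodes a related factor, translated by the same mechanism and linked to mitochondrial stress. Its signal (NM_030693) was 5.72, 5.44 and 5.81 in control hearts and 5.33, 5.65 and 5.47 in KO-labelled hearts. KO-labelled heart 1 was the lowest, and the other hearts of both groups were mixed. The difference of -0.17 ± 0.15 had a 95% interval from -0.53 to 0.19 and adjusted p = 0.39, and its sign turned under quantile, cyclic loess and spike-in scaling.

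Ddit3 encodes CHOP, which joins ATF4 in prolonged stress and is known for promoting cell death. Its signal (NM_007837) was 1.098, 1.099 and 1.206 in control hearts and 0.84, 1.18 and 0.92 in KO-labelled hearts. The controls lay close together, and KO-labelled heart 2 fell within their range while hearts 1 and 3 lay below it. The difference of -0.15 ± 0.13 had a 95% interval from -0.47 to 0.16 and adjusted p = 0.381, and spike-in scaling turned its sign.

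Atf3 encodes a stress-inducible factor of the same family that also responds within minutes to mechanical and inflammatory signals. Its signal (NM_007498) was -0.48, 1.21 and -0.36 in control hearts and 1.63, 1.99 and 0.51 in KO-labelled hearts. Control heart 2 lay far above the other controls and above KO-labelled heart 3, so the groups overlapped. The difference of 1.25 ± 0.56 had a wide 95% interval, from -0.08 to 2.58, and adjusted p = 0.115 by limma. Without control heart 2 it was 1.79 with adjusted p = 0.0289, so the call for Atf3 turned on this 1 heart. Fos, another immediate early gene, read -1.90, 0.08 and -1.87 in the control hearts and -0.94, 0.40 and -1.35 in the KO-labelled hearts. As with Atf3, control heart 2 was the highest control and KO-labelled heart 2 the highest KO-labelled heart for Fos. Fos did not pass (adjusted p = 0.496 by limma). Jun and Junb shared this order only in part and did not pass either. Jun was highest in control heart 1 and KO-labelled heart 2 of their groups, and Junb in control heart 2 and KO-labelled heart 1. Fos, Jun and Junb are named outside the naming rule given below.

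Of the target genes, Asns encodes asparagine synthetase, which makes asparagine from aspartate and glutamine. Its signal (NM_012055) was 0.58, 1.18 and 0.87 in control hearts and 2.09, 2.27 and 1.69 in KO-labelled hearts. Every KO-labelled heart was above every control heart, and the spread within the groups was alike (SD 0.30 in each). The mean rose from 0.88 to 2.02, a log2 difference of 1.14 ± 0.21 (SE, n = 3 per group; 95% interval 0.63 to 1.65), or 2.2-fold, with adjusted p = 0.00902. Asns passed in all 19 alternative analyses, at 0.94 to 1.39.

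Trib3 encodes a pseudokinase that is induced by ATF4 and CHOP and dampens ATF4 activity. Its signal (NM_175093) was 1.03, 0.97 and 1.04 in control hearts and 1.04, 1.33 and 0.83 in KO-labelled hearts. The control hearts were nearly level, and the KO-labelled hearts lay on both sides of them. The difference was 0.05 ± 0.15 with a 95% interval from -0.31 to 0.42 and adjusted p = 0.795, and it was -0.08 without KO-labelled heart 2.

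Chac1 encodes an enzyme that degrades glutathione and is a sensitive target of the ATF4 and CHOP branch. Its signal (NM_026929) was 2.42, 2.22 and 2.00 in control hearts and 0.93, 2.46 and 2.11 in KO-labelled hearts. KO-labelled heart 1 was well below all others, heart 2 was the highest of all 6, and heart 3 lay within the control range. The difference of -0.38 ± 0.39 had a 95% interval from -1.31 to 0.54 and adjusted p = 0.456, and without KO-labelled heart 1 it was 0.07. The intervals of Atf4, Atf5, Ddit3 and Trib3 hold no change as large as the estimate for Asns, whereas that of Atf3 includes such a rise and that of Chac1 a fall of that size.

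**Figure D2:**
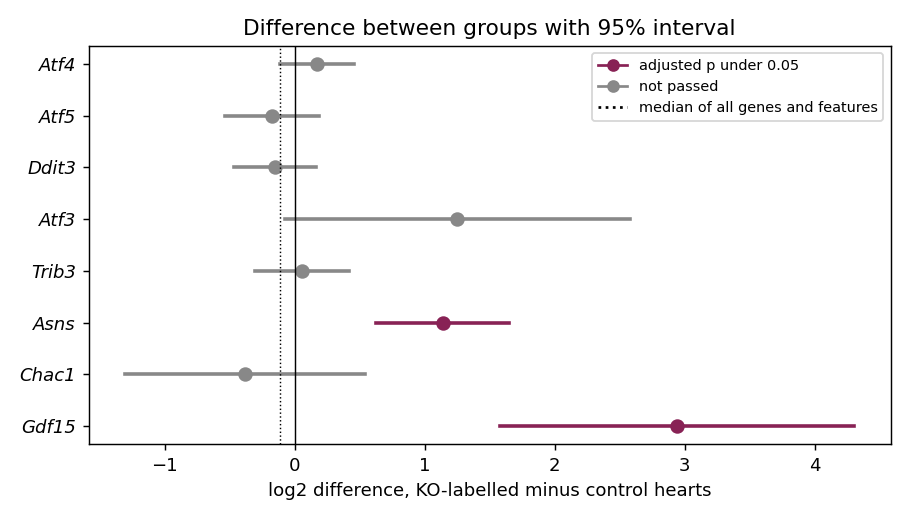
Log2 difference between KO-labelled and control hearts for the 8 tested genes, with points for the estimate and bars for the 95% interval of the limma fit over 6 arrays. The bars of Asns and Gdf15 lie above 0, those of the other 6 genes include 0, and the dotted line marks the median of all features at -0.11.

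Of the hormones, Gdf15 encodes a member of the TGF-beta superfamily that acts on the brainstem receptor GFRAL and is released by stressed tissues, the heart among them. Its signal (NM_011819) was -0.83, -0.87 and -0.55 in control hearts and 3.57, 1.18 and 1.83 in KO-labelled hearts. Every KO-labelled heart was above every control heart, and KO-labelled heart 1 stood far above the other hearts. The controls spread little (SD 0.17) and the KO-labelled hearts widely (SD 1.24). The mean rose from -0.75 to 2.19, a difference of 2.94 ± 0.57 (SE, n = 3 per group; 95% interval 1.58 to 4.30), or 7.68-fold, with adjusted p = 0.01. Gdf15 ranked 132 by size of rise among 13186 named genes. It passed in all 19 alternative analyses, at 2.25 to 3.45, and the lowest value was that without KO-labelled heart 1.

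Fgf21 encodes a hormone best known from liver that acts on FGF receptors together with beta-klotho, and the heart can make it under stress. Its 1 probe (NM_020013) was not well above background on any of the 6 arrays. The processed signals before scaling were 2.83, 2.67 and 3.13 in control hearts and 3.35, 3.85 and 4.17 in KO-labelled hearts, where the 75th percentile of the arrays lay between 147 and 235. On the log2 scale used for the other genes the control hearts read -5.70, -6.23 and -5.56. The KO-labelled hearts read -6.14, -5.60 and -5.57 on that scale, and the groups overlapped. These signals have no order that can be read at this level, and no fold is given. Of 5 hepatocyte markers, Alb, Apoa1 and Fgb were likewise not above background on any array, Ttr was too dim to be tested, and Serpina1a was above background on 3 control arrays and 1 KO-labelled array and did not pass (adjusted p = 0.339 by limma).

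Hearts did not keep the same order from gene to gene. KO-labelled heart 2 was the highest KO-labelled heart for 6 of the 8 tested genes, and heart 1 was the highest for Atf4 and Gdf15. Heart 1 was also the lowest for Atf5, Ddit3 and Chac1. The SD was larger in the KO-labelled group for 4 of the 8 genes and for 51.8% of all features.

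The genes whose profile over the 6 arrays was most like that of Gdf15, by the mean absolute difference of control-centred log2 signals among 12843 named candidates, were Cxcr6 at 0.19, Cx3cr1 at 0.22 and Klrb1a at 0.28. Cxcr6 and Cx3cr1 are chemokine receptors of lymphocytes and of monocytes and macrophages, and Klrb1a is a receptor of natural killer cells. Cxcr6 read -1.07, -1.44 and -1.37 in control hearts and 2.77, 0.73 and 1.44 in KO-labelled hearts. Cx3cr1 read 0.50, 0.65 and 0.94 in control hearts and 4.07, 2.66 and 3.38 in KO-labelled hearts. Both were highest in KO-labelled heart 1 and lowest of that group in heart 2, as Gdf15 was, and since they were chosen for this likeness that order is only a description. Klrb1a read -1.70, -3.04 and -3.18 in KO-labelled hearts, with heart 3 the lowest. It was well above background on none of the control arrays (0 of 3), so its distance rests partly on signals below that level. Klrb1a was at least 2.45-fold higher in the KO-labelled hearts (adjusted p = 0.00354 by limma). Its mean log2 signal was -5.84 in control and -2.64 in KO-labelled hearts. It entered the test only through the KO-labelled arrays, where it was high, so this adjusted p is no separate support. The 17 alternatives that tested it gave 0.53 to 3.48. For Atf4 the nearest profiles were those of Srpk1 at 0.02, Mms19 at 0.03 and Chtf8 at 0.03, and none of these 3 genes passed.

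Some markers of several cell types also differed between the groups. The counts below stand beside 16.1% higher and 23% lower over all features. Cardiomyocyte markers were present at high signal, and 7 of 10 were lower and 0 higher in the KO-labelled hearts by limma, with the same counts at an unadjusted p under 0.05. Their summed level, in multiples of the array's 75th percentile signal, was 9470 to 13000 in control and 6460 to 7940 in KO-labelled hearts. For these and all other markers, a change in the number of cells and a change in RNA per cell cannot be told apart in whole tissue. Of the 8 fibroblast markers, 6 were higher and 0 lower, again also unadjusted, with a summed level of 410 to 757 in control and 1040 to 1170 in KO-labelled hearts. The 6 were Col1a1, Col1a2, Col3a1, Lum, Tcf21 and Postn. Dcn, at -0.229, and Pdgfra, at 0.335, did not pass (adjusted p = 0.352 and 0.135 by limma). Of the 5 macrophage markers with a probe, 2 were higher, Adgre1 and Csf1r, and 0 lower (3 and 0 unadjusted). The summed macrophage level was 56.1, 89.5 and 66.7 in control hearts and 168, 106 and 147 in KO-labelled hearts. Heart 1 was again the highest and heart 2 the lowest KO-labelled heart, as for Gdf15. The fibroblast, neutrophil and smooth muscle sums had the same order of KO-labelled hearts, so it was not particular to macrophages. Cardiomyocyte, endothelial, lymphocyte and adipocyte sums had other orders. Neither of the 2 tested neutrophil markers, S100a8 and S100a9, passed by limma, nor at an unadjusted p under 0.05 (0 higher, 0 lower in both), and their sum reached 58.5 in KO-labelled heart 1 against 1.17 to 5 in the control hearts. The 6 endothelial markers did not pass by limma (0 higher, 0 lower; 0 and 2 at an unadjusted p under 0.05), with sums of 28.6 to 31.6 and 24.2 to 31.5. Of 5 smooth muscle markers 2 were higher, Cnn1 by 3.06 and Tagln by 1.42, and 1 lower, Myh11 at -0.75, with sums of 196 to 204 in control and 203 to 284 in KO-labelled hearts. Of the 3 tested lymphocyte markers 1 was higher, Cd3d, which was well above background on only 1 of the 3 control arrays. Cd3d entered the test only through the KO-labelled arrays, where it was high. The summed lymphocyte levels were 4.31 to 5.51 in control and 4.86 to 10.9 in KO-labelled hearts, the highest in heart 2. Adipocyte markers varied widely within both groups, at 3.37 to 88.4 and 2.87 to 232. The part of these cell types in the Gdf15 and Asns values was not tested.

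**Figure D3:**
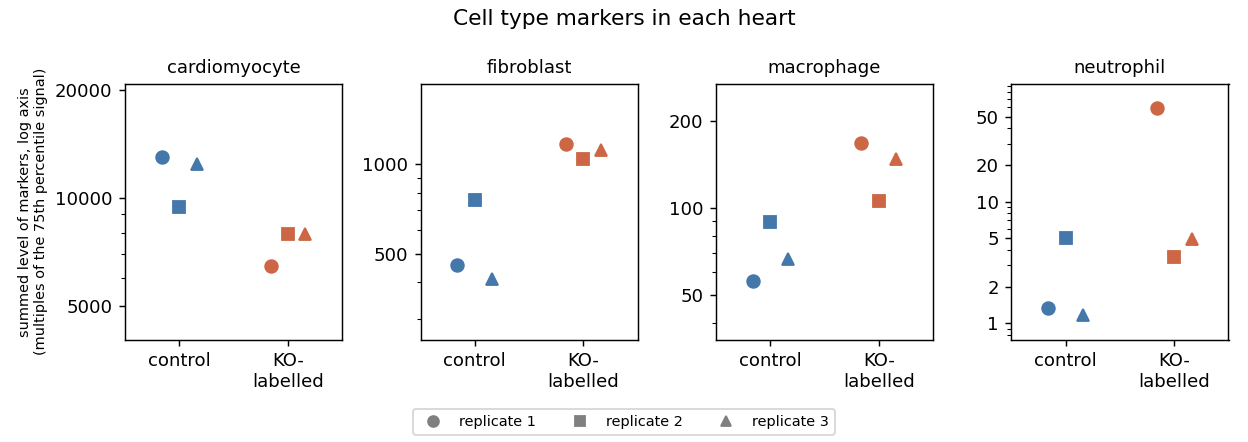
Summed level of the markers of 4 cell types in each heart, in multiples of the array's 75th percentile signal on a log axis, with shapes for replicate numbers. Fibroblast and macrophage sums are higher in all 3 KO-labelled hearts than in any control heart, cardiomyocyte sums are lower, and the neutrophil sum of KO-labelled heart 1 stands apart at 58.5.

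The genes around the 9 were taken from lists of the pathway. Of 129 listed genes, 127 had a probe and 117 were tested; 22 were higher (18.8%), 28 lower (23.9%) and 67 did not pass, with a median difference of 0.00. These shares are near those of all features, 16.1% and 23%. The split between higher and lower calls rested on scaling: it was 22 higher to 15 lower with spike-in scaling, which moved the median of all features by 0.25. Among all called features 41.1% were higher, against 60.3% with spike-in scaling and 55.3% with cyclic loess. Counts also fell without single hearts, with 16 lower without control heart 1 and 18 without control heart 3 or KO-labelled heart 3, where the count over all features fell as well. Genes named below follow a rule by smallest p unless stated.

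**Figure D4:**
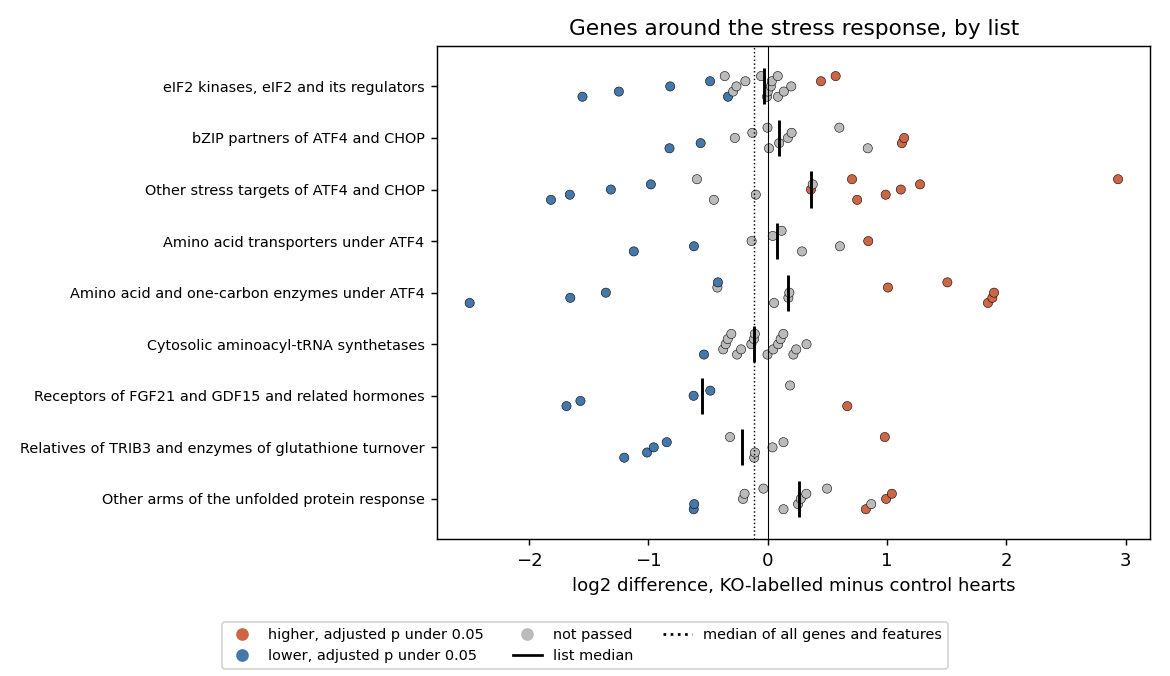
Log2 difference between KO-labelled and control hearts for each tested gene of the 9 lists, coloured by its call at adjusted p under 0.05, with a black bar for the list median and a dotted line for the median of all features at -0.11. Most lists hold calls in both directions, and of the 18 synthetases 1 passed, as lower.

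Upstream of ATF4, 2 of 20 genes of the eIF2 kinases and regulators were higher, 5 lower and 13 did not pass (median -0.03). Oma1, the mitochondrial protease that starts the relay to HRI, fell by 1.25 (adjusted p = 0.00234 by limma), and Dele1, its messenger, fell by 1.55 (adjusted p = 0.00508). Dele1 and Oma1 passed in all 19 alternatives. Eif2b4, a subunit of the exchange factor that recharges eIF2, fell by 0.82, and Eif2ak3, the kinase PERK of the endoplasmic reticulum, rose by 0.57. The fallers numbered 3 without control heart 1, 2 or 3 or KO-labelled heart 2 or 3, and 1 gene rose without control heart 1 or 3 or KO-labelled heart 3.

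Of the 13 tested leucine-zipper partners of ATF4 and CHOP, 2 were higher, 2 lower and 9 did not pass (median 0.10). Batf3 and Cebpa rose by 1.14 and 1.12, and Nfe2l1 and Cebpb fell by 0.56 and 0.82. Batf3 is known from dendritic cells and lymphocytes, Cebpa and Cebpb from metabolic and myeloid cells, and Nfe2l1 from proteasome gene control. Nfe2l1 passed in 13 and Cebpb in 11 of 19 alternatives. With spike-in scaling both falls were lost, at -0.32 (adjusted p = 0.116) and -0.58 (adjusted p = 0.0511), and Nfe2l1 was at -0.28 with normexp (adjusted p = 0.0655 by limma). The list held 0 lower genes without control heart 1 or control heart 3, and 1 when any KO-labelled heart was left out. Without control heart 3 it held 1 higher gene, as Cebpa did not pass (adjusted p = 0.051 by limma).

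Of 15 other stress targets of ATF4 and CHOP, 7 were higher, 4 lower and 4 did not pass (median 0.36). Niban1, a translation regulator, rose by 1.28, and Bbc3, which encodes the cell death protein PUMA, rose by 0.71. Gadd45a, a growth arrest gene, fell by 1.82, and Herpud1, which acts in degradation at the endoplasmic reticulum, fell by 1.66. Pmaip1, which encodes the cell death protein NOXA, rose by 2.94 (adjusted p = 0.011 by limma), the largest rise in the lists. It was well above background on only 1 of the 3 control arrays, as was Ero1a, which rose by 0.75. Both are named after their values were seen, and both entered the test only through the KO-labelled arrays, where they were high. Among probes well above background on all arrays, 5 of 13 genes were higher and 4 lower. The risers numbered 3 without control heart 1 or KO-labelled heart 3 and 4 without control heart 3 or KO-labelled heart 1 or 2, while 4 fell in each of these analyses.

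Of 8 tested amino acid transporters, 1 was higher, 2 lower and 5 did not pass (median 0.08). Slc38a2, which carries glutamine and other neutral amino acids, rose by 0.84 and passed in all 19 alternatives. Slc7a1, a carrier of cationic amino acids, fell by 0.62 and passed in 8 of 19 alternatives. Slc7a5, the light chain of a carrier of large neutral amino acids, has 2 probes that ran in opposite directions, at -1.12 (adjusted p = 0.0201) and 1.69 (adjusted p = 0.003) when limma was run on every probe, so its call as lower is uncertain. The list held 2 higher and 0 lower genes without control heart 1 or 2, 1 lower without KO-labelled heart 1 or 2, and 0 lower without KO-labelled heart 3.

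Of 13 tested enzymes of amino acid and one-carbon metabolism, 5 were higher, 4 lower and 4 did not pass (median 0.17). Psat1, the transaminase of serine synthesis, read -0.26, 0.08 and -0.26 in control hearts and 1.86, 1.55 and 1.69 in KO-labelled hearts. These groups were far apart, with a difference of 1.85 ± 0.15 (SE) and adjusted p = 0.00149. Mthfd1l, a mitochondrial folate enzyme, rose by 1.51 (adjusted p = 0.00281). Named after their values were seen, Phgdh, which opens serine synthesis, rose by 1.88, Mthfd2, another mitochondrial folate enzyme, by 1.90, and Aldh18a1, an enzyme of proline synthesis, by 1.01. Mthfd2 was well above background on 2 of the 3 control arrays, so it entered the test only through the KO-labelled arrays, where it was high. Among probes well above background on all arrays, 4 of 11 genes of this list were higher and 3 lower. The fallers included Got1, the cytosolic aspartate transaminase, which fell by 1.36, and Cth, which makes cysteine from cystathionine. Cth was well above background on none of the KO-labelled arrays (0 of 3) and was at least 5.32-fold lower there (adjusted p = 0.00264 by limma). Its mean log2 signal was -1.28 in control and -3.77 in KO-labelled hearts. Cth entered the test only through the control arrays, where it was high, so this adjusted p is no separate support. The 18 alternatives that tested it gave -2.745 to -0.947. Gpt2, the mitochondrial alanine transaminase, and Shmt2, a mitochondrial serine and folate enzyme, fell by 1.65 and 0.42 and are also named after their values were seen.

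Of the 18 tested cytosolic aminoacyl-tRNA synthetases, which load amino acids on tRNAs, 0 were higher, 1 was lower and 17 did not pass by limma (median -0.11, that of all features). At an unadjusted p under 0.05 the counts were 1 and 4. The 1 was Farsb, which fell by 0.53, and the gene with the next smallest p was Cars, at 0.33 with adjusted p = 0.0576. Neither call was firm: Farsb passed in 12 of 19 alternatives and Cars in 8. Without control heart 2 the list held 4 lower genes, without KO-labelled heart 2 it held 1 higher and 0 lower, and without control heart 1 or 3 or KO-labelled heart 3 it held 0 calls.

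On the receiving side of the hormones, 6 of the listed genes could be tested. Fgfr4, Klb, which encodes beta-klotho, Kl and Gfral, the receptor of GDF15, were not tested because their probes were too dim. Of the 6, 1 was higher, 4 lower and 1 did not pass (median -0.55). Ppara, the nuclear receptor known to drive Fgf21 in liver, fell by 1.57 on its brightest probe, and its other 2 probes gave -1.65 and -1.49. Fgf23, a bone hormone of the FGF21 family, and Fgfr2, an FGF receptor, fell by 0.48 and 0.62 and passed in 11 and 12 of 19 alternatives. With spike-in scaling both were lost, at -0.24 (adjusted p = 0.228) and -0.38 (adjusted p = 0.1 by limma). The Fgf23 probe read high for a bone hormone, at a mean of 4.98 in control and 4.50 in KO-labelled hearts. Whether it reads only the Fgf23 transcript was not tested. Fgfr1, the main FGF receptor for FGF21, was higher by 0.67 on its brightest probe, but its other 2 probes gave 0.33 and -0.59 and the mean of its probes 0.13 with adjusted p = 0.389 by limma, so its call is uncertain. The list held 0 lower genes without control heart 1 or control heart 3, 2 without KO-labelled heart 1 and 1 without KO-labelled heart 3. The fourth faller was Ret, the co-receptor of GFRAL, at -1.69 (adjusted p = 0.0387 by limma). Ret is named after its value was seen, and it was well above background on only 2 of the 3 KO-labelled arrays. It entered the test only through the control arrays, where it was high.

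Of 10 relatives of TRIB3 and enzymes of glutathione turnover, 1 was higher, 4 lower and 5 did not pass (median -0.21). Chac2, the relative of Chac1, fell by 0.95, Ggct, another gamma-glutamyl cyclotransferase, fell by 1.01, and Oplah, which acts downstream of them, fell by 0.85. Ggt7, of the gamma-glutamyl transferase family, rose by 0.98. These 4 genes passed in all 19 alternatives.

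Of 14 genes of the other arms of the unfolded protein response, 3 were higher, 2 lower and 9 did not pass (median 0.27). Edem1 and Pdia4, which act in disposal and folding of proteins in the endoplasmic reticulum, rose by 0.99 and 1.04. Dnajb9, a co-chaperone, and Atf6, a sensor of the response, fell by 0.62 and 0.61. Both falls were lost with spike-in scaling (adjusted p = 0.112 and 0.142 by limma). The risers numbered 6 without KO-labelled heart 2, and 2 when any other single heart was left out.

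**Figure D5:**
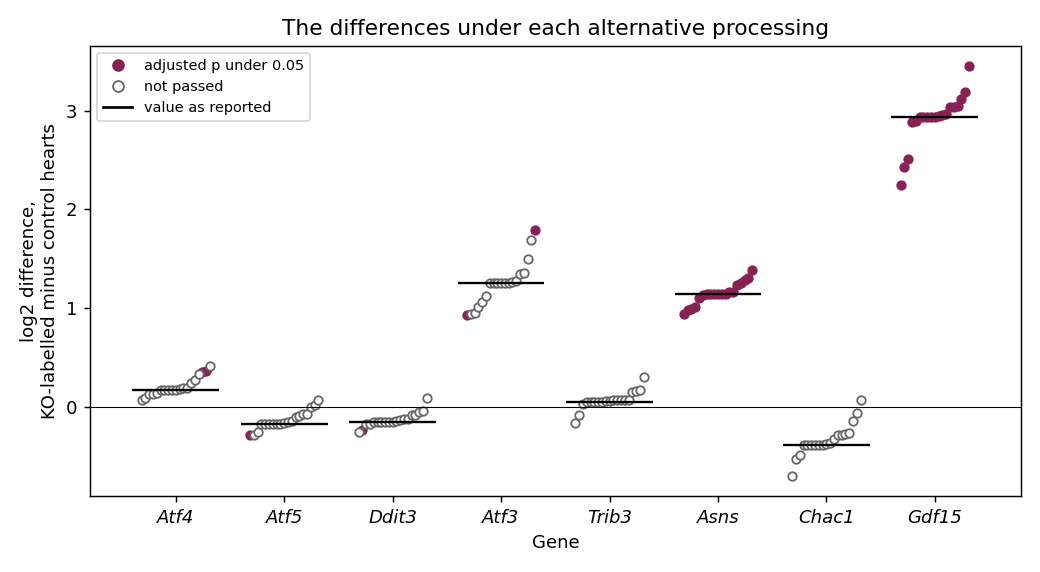
Log2 difference between KO-labelled and control hearts for the 8 tested genes in each of the 19 alternative analyses, filled where the adjusted p was under 0.05, with a black line at the value as reported. All points of Asns and Gdf15 are filled, 2 points each of Atf3 and Atf4 and 1 each of Atf5 and Ddit3 are filled, and no point of Trib3 or Chac1 is.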

How the data were processed

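Whole-heart RNA of 3 control and 3 KO-labelled mice was measured on 6 arrays of 1 slide. The labels name a column kit for heart RNA but elsewhere a blood RNA kit with removal of globin, a conflict that could not be settled. The deposited scanner files hold intensity values from Agilent Feature Extraction 11.0.1.1 per the file headers, with background subtracted and no scaling between arrays. Their flags for spots above background, saturated or outlying are other columns of the same deposited files, set per the file headers by that software. A table of log2 values was also deposited; the submitters' processing notes name R 3.1.3, its scaling is not stated in the sources used, and it served only as an alternative.

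Processed signals were log2-transformed, outlier spots left out, repeated spots averaged, and each array's 75th percentile subtracted. Of 55681 probes, 73 had only flagged spots on an array and were dropped, and 26551 matched a symbol through RefSeq accessions. A probe was kept if all 3 arrays of either group had it well above background, and a gene is its probe with the highest mean, or its accession where no symbol matched. limma 3.58.1 in R 4.3.3 (data.table, version 1.17.8) fitted 20014 genes and features, 2-sided, with Benjamini-Hochberg adjustment at 0.05, and was tested on simulated data. The smallest p that an exact permutation of 3 against 3 hearts allows is 0.1, so calls rest on variance pooled over genes. A fold against a group with no array above background is set against the lowest signal that any probe above background had on each of that group's arrays.

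The genes and lists were chosen with earlier results of these data known. The naming rule took the 9 genes with every probe, up to 4 passing genes of each list by smallest p (or 2 where fewer than 2 passed), Egln1, Egln2 and Egln3, and the 3 profiles most like Atf4, Fgf21 and Gdf15 where tested, predicted genes and clones left out. Alternatives were other scalings, normexp background correction (offset 50), other filters and probe choices, other variance models, array weights, the replicate block and leaving out each heart. The median signal stood in for the mean signal in normexp. Motifs were searched in RefSeq promoter windows of GRCm38.p6, found for all 9 genes. The array's own probe positions were not used.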

Additional observations from a re-analysis of the deposited data

How the results depend on the processing

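Asns and Gdf15 kept their direction and their call in all 19 alternatives, with adjusted p from 0.00127 to 0.0386 and from 0.000309 to 0.0412 by limma. With array weights, whose fit stopped before it converged, 5 of the 8 genes passed, Atf3 also higher (0.93, adjusted p = 0.0455) and Atf5 (-0.28, adjusted p = 0.0189) and Ddit3 (-0.23, adjusted p = 0.0328) lower. The count was 3 with quantile normalization, with cyclic loess (Atf4 in both) and without control replicate 2 (Atf3), and leaving out single hearts gave 2 to 3. Atf5 turned to 0.024 with quantile normalization, 0.005 with cyclic loess and 0.072 with E1A spike-in scaling, and Ddit3 turned to 0.092 with E1A spike-in scaling. Trib3 turned to -0.16 with array weights, and leaving out single hearts gave -0.076 to 0.17. For Chac1 leaving out single hearts gave -0.696 to 0.069. Slc7a5 turned to 0.601 with normexp and 0.285 with the mean of its probes, and leaving out single hearts gave -1.34 to 1.644, above 0 where its other probe was taken. Over all features, 7817 passed, 4345 with no filter on dim probes, where more probes were tested, 13713 with array weights, 4862 with the replicate block, and 3904 to 8691 without single hearts; the cause of the last 3 was not tested. Of the list genes 50 passed, and 33 to 48 without single hearts, 37 with E1A spike-in scaling, 34 with no filter, 35 with the replicate block and 74 with array weights. The deviations of same-numbered hearts from their group means correlated at -0.15, -0.12 and -0.08, and those of differently numbered hearts at -0.168 to 0.264. Such deviations are tied to each other within a group of 3, so these values cannot settle whether hearts were paired. The replicate block changed no call among the 8 genes. Of the named list genes it took the calls of Cebpb (adjusted p = 0.0717), Fgf23 (0.0624) and Fgfr2 (0.0892), and those of Slc7a1 and Farsb. A slide block was not run because there was 1 slide. Signals near background limit Fgf21.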
